A study of Homo sapiens with 18 samples.

Results

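ChIP-seq of 2 transcription factors, the glucocorticoid receptor (GR) and RELA of the NF-κB family, was done in A549 cells, a lung carcinoma line of epithelial type with wild-type genotype. The sites described here are those that the authors' deposited table places more than 200 kb from the nearest gene start. They number 2340 of 11571 sites, or 20.2%, and all 4 measurements deposited for each site are given. The study had 18 libraries in 9 conditions of 2 libraries each, with 8 libraries for GR, 8 for RELA and 2 inputs. All cells were kept overnight in serum-free medium and then either left unstimulated (NS) or exposed for 1 h to IL-1β at 1 ng/mL (IL1B), budesonide at 300 nM (Bud) or IL-1β-plus-budesonide (I+B). GR was measured with budesonide alone and on cotreatment, RELA with IL-1β alone and on cotreatment, and each of these 4 measurements was set against NS, and GR after IL-1β alone and RELA after budesonide alone were not analysed here. Each value is pooled over the libraries of its condition, so the depth per library and the spread between the 2 libraries are unknown.

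GR is a nuclear receptor that enters the nucleus when it binds a glucocorticoid such as budesonide and attaches to glucocorticoid response elements (GREs) or to other DNA-bound factors. RELA is held in the cytoplasm until a cytokine such as IL-1β releases it, and then binds κB elements as a dimer with NF-κB partners. In many cell types both factors bind mostly at enhancers, which can lie far from the genes they act on and can skip the nearest one. The gene named beside a site is therefore a position label and not a target. A site said below to be near a named gene still lies more than 200 kb from the deposited start of that gene.

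The sequences of 8 sites are shown because the values below turn on them, and all are the plus strand of GRCh38. Capitals mark a GRE match of at least 10 of the 12 defined positions (AGAACA, 3 free bases, then TGTTCT), a full match to the κB consensus at its 9 defined positions, or an AP-1 match (TGANTCA). In the last sequence capitals mark copies of the satellite unit GGAAT. The MCM2 site had the highest GR intensity among called sites, and the IRS2 site had high intensities of both factors with no GRE or κB match. The MACROD2 site had the highest RELA intensity among called sites, and the SOX9 site belongs to the largest run without satellite sites. The PRKCH and JAG1 sites hold a GRE and a κB match together, the PALLD site had the largest upward difference of RELA on cotreatment, and the SHCBP1 site is a satellite.
MCM2 chr3:127304340-127304476: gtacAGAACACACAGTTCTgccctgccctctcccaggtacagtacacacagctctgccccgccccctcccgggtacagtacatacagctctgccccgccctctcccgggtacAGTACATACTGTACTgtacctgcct
IRS2 chr13:109576432-109576531: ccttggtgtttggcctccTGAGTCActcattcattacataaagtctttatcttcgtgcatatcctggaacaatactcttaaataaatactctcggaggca
MACROD2 chr20:14845640-14845744: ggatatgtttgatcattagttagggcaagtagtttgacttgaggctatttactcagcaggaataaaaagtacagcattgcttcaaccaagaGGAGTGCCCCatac
SOX9 chr17:72519097-72519196: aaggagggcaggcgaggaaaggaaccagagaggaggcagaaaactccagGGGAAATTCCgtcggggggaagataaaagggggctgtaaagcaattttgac
PRKCH chr14:61545887-61545990: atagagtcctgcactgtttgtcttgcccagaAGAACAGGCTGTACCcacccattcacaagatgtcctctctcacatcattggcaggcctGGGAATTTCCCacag
JAG1 chr20:11196415-11196514: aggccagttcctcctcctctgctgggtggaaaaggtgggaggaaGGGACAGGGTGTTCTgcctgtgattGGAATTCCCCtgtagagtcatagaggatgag
PALLD chr4:168716873-168716972: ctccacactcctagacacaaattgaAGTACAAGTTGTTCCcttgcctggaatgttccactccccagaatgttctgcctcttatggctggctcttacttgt
SHCBP1 chr16:46389670-46389789: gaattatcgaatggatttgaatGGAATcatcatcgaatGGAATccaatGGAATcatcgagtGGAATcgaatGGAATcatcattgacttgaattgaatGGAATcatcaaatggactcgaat

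The sites were defined by distance alone, and their positions were checked against the GENCODE 44 annotation. Their median distance from the deposited gene start was 345.3 kb. In 1666 cases the distance was between 200 and 500 kb, in 457 between 500 kb and 1 Mb, and in 217 over 1 Mb, where the table names no gene. Downstream positions made up 67.5% of them, against 64.6% of all sites. Only 1670 of the 2340 lay more than 200 kb from a protein-coding start in GENCODE, and 378 did so when starts of long non-coding RNAs were counted too. In 40 cases a protein-coding start lay within 10 kb, and in 3 cases within 1 kb. The deposited gene was the nearest protein-coding gene of GENCODE at 1075 sites. An annotated gene of any kind covered 1492 sites, or 63.8%, against 67.0% of all sites, and a protein-coding gene covered 998, or 42.6%, against 51.2%. The label therefore describes the distance to a start in the authors' annotation, and many of the sites lie inside long genes or nearer to another annotated start. Just inside the limit were sites named SEMA3C at 200163 bp, VRK2 at 200192 bp and GLIS3 at 200195 bp, and just outside it were AKAP13 at 199651 bp, FOXN2 at 199892 bp and SEC14L1 at 199938 bp.

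Many of the highest intensities among the distal sites came from satellite DNA that had no call with any treatment. The binding intensity is the authors' value on a log scale whose base is not stated, with 0.00 as its lowest value. A site was called here when the authors' FDR was at most 0.05, the log2 fold over NS was above 1 and the intensity was at least 4. At 141 sites, or 6.03%, the 400 bp held at least 10 copies of GGAAT or its complement, with a median of 28 copies, while no other distal site held more than 7. None of the 141 was called in any measurement, although 137 of them had a GR intensity of at least 4 after budesonide. A single satellite site passed an FDR of 0.05, and it was lower than NS, for RELA after IL-1β-plus-budesonide. Chromosome Y held 55 of them, chromosomes 16 and 17 held 18 each, chromosome 22 held 12 and chromosome 2 held 11. The gene WSB1, a ubiquitin ligase adaptor on chromosome 17, was named for 21 distal sites, of which 18 were satellite and all 21 were uncalled. The distal site with the highest intensity, on chromosome 16 and named SHCBP1, had GR intensities of 11.01 after budesonide and 10.82 after IL-1β-plus-budesonide, and RELA intensities of 10.82 after IL-1β and 10.47 after IL-1β-plus-budesonide. Its values were thus alike for both factors and all treatments, and it was not called. Of the 10 distal sites with the highest GR intensity after budesonide, 6 were satellite and 1 was called. Outside the satellite, 17 further uncalled sites had an intensity of at least 6 in every measurement. The cause of the signal at satellite DNA was not tested.

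**Figure D1:**
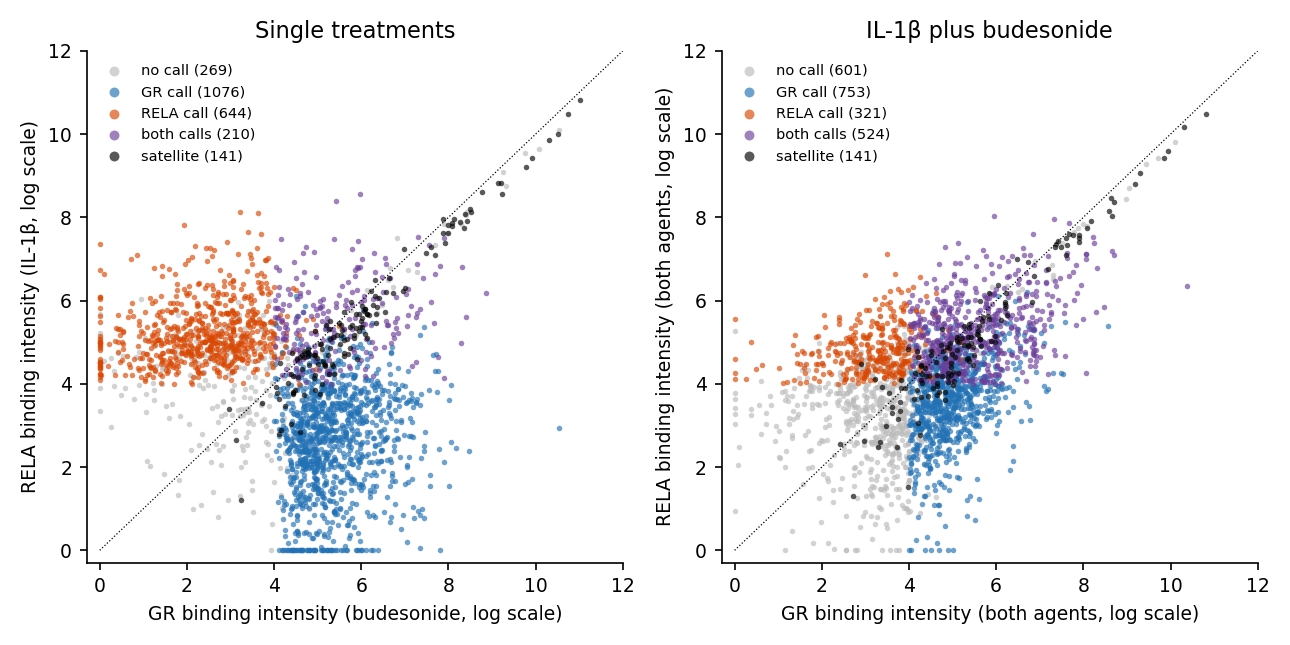
GR intensity (x axis) against RELA intensity (y axis), both on the authors' log scale, at the 2340 distal sites with the single treatments (left) and with IL-1β-plus-budesonide (right), coloured by call. The 141 satellite sites lie along the line of equal values and reach 11.01, and the number of sites with both calls is 210 on the left and 524 on the right.

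GR was called at 1286 distal sites after budesonide and at 1277 after IL-1β-plus-budesonide. These are 55.0% (95% Wilson interval 52.9 to 57.0) and 54.6% (52.5 to 56.6), where 56% and 60.5% of all 11571 sites were called. RELA was called at 854 distal sites after IL-1β and at 845 after IL-1β-plus-budesonide, which are 36.5% (34.6 to 38.5) and 36.1% (34.2 to 38.1), beside 40.9% and 42.1% of all sites. No call in any measurement was made at 290 sites, or 12.4%, against 7.18% of all sites. Without the satellite sites, 149 of 2199 remained uncalled, or 6.78%, and 58.5% and 58.1% were called for GR and 38.8% and 38.4% for RELA. Beyond 1 Mb, GR was called at 29.0% and 31.3% of 217 sites and RELA at 28.6% and 26.3%, and 144 of these were not satellite, with 43.8% and 47.2% called for GR and 43.1% and 39.6% for RELA. Sites within 1 kb of a start were different in kind, with RELA called at 65.4% and 67.7% and GR at 39.6% and 56.6% of 399 sites. The intervals cover counting error only, and sites are not replicates of a treatment.

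**Figure D2:**
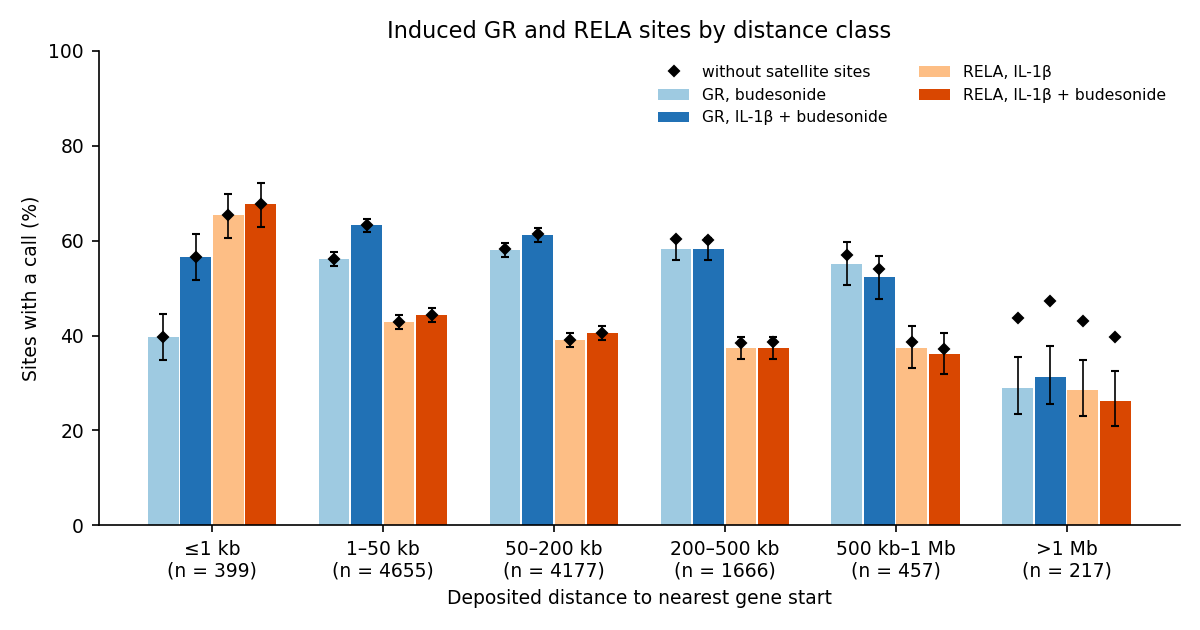
Percent of sites called (y axis) by deposited distance to the nearest gene start (x axis), for GR and RELA with the single treatments and with IL-1β-plus-budesonide, where bars are all sites with 95% Wilson intervals and diamonds leave out satellite sites. RELA calls after IL-1β make up 65.4% within 1 kb and 28.6% beyond 1 Mb, and the diamonds stand above the bars mainly beyond 1 Mb.

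Called distal sites had median intensities close to those of all called sites, where the call itself required an intensity of at least 4. After budesonide the median GR intensity of called sites was 5.22 at distal sites and 5.32 over all sites, and after IL-1β the median RELA intensity was 5.16 and 5.33. The strongest called GR site lay on chromosome 3, 293.6 kb from MCM2, a subunit of the replicative helicase, and 16.4 kb from PRR20G in GENCODE. Its GR intensities were 10.54 after budesonide and 10.38 after IL-1β-plus-budesonide, and its RELA intensities were 2.95 after IL-1β and 6.35 after IL-1β-plus-budesonide. GR was thus high with both treatments, and RELA was called only in the presence of budesonide. Its sequence above holds a GRE match at 11 of 12 positions and another at 10. A site 208.8 kb from PAPPA, which encodes a protease of insulin-like growth factor binding proteins, had GR intensities of 8.86 and 8.65 and RELA intensities of 6.19 and 7.19, with all 4 called. A site 421.8 kb from MYC, a growth-promoting transcription factor, had GR intensities of 8.48 and 8.57 and RELA intensities of 2.38 and 5.38, and only GR was called. This MYC site held a perfect GRE. At the IRS2 site, near the gene of an insulin receptor adaptor, GR was 8.30 with either treatment and RELA was 6.81 and 6.78, so the values with and without cotreatment were alike.

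The strongest called RELA site lay inside MACROD2, which encodes an enzyme that removes ADP-ribose from proteins, 850.1 kb from its start. RELA was 8.57 after IL-1β and 8.02 after IL-1β-plus-budesonide, and GR was 5.97 and 5.95, with all 4 called. A site inside the ubiquitin ligase gene HECW1 had RELA intensities of 8.13 and 7.29 and GR intensities of 3.21 and 4.82. There GR was called only in the presence of IL-1β. A site named IDO2 but 5.68 kb from TCIM had RELA intensities of 8.38 and 7.25 and GR intensities of 5.42 and 6.62, and it was called in all 4. With both treatments, strong RELA sites also lay in DNER, a Notch-binding membrane protein, where RELA was 7.14 and 7.86 and GR 6.30 and 7.68, and in RAD51B, a recombination gene, where RELA was 6.27 and 7.52 and GR 7.07 and 8.22. Both factors were thus higher on cotreatment at the last pair of sites, unlike at the MACROD2 site.

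On cotreatment GR calls were kept at 994 distal sites, gained at 283 and lost at 292. The gained sites are 12.1% of distal sites against 15.1% of all sites, and the lost sites are 12.5% against 10.5%. RELA calls were kept at 645, gained at 200 (8.55%, against 9.9% of all sites) and lost at 209 (8.93%, against 8.75%). For GR the distal sites therefore lost about as many calls as they gained, while all sites together gained 1742 and lost 1216. No library-level test of IL-1β-plus-budesonide against a single treatment could be made, so gains and losses are differences between calls, and the folds compared share their NS libraries.

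At sites called after budesonide, the log2 fold of GR with IL-1β-plus-budesonide minus that with budesonide had a median of -0.44 (95% interval of the median -0.49 to -0.38), against -0.36 over all called sites and 0.05 within 1 kb of a start. For RELA at sites called after IL-1β the median difference was -0.42 (-0.46 to -0.37), against -0.36 over all called sites. The choice of sites bears on these values, because a site had to pass in the single treatment. Over distal sites called after IL-1β-plus-budesonide the GR median was 0.02, and over all 2340 distal sites it was -0.06. The RELA median was -0.05 over distal sites called after IL-1β-plus-budesonide and 0.03 over all distal sites, where its sign turned. At the uncalled satellite sites the differences had the same sign, with a median of -0.96 for GR and lower values at 134 of 141, and of -0.63 for RELA with lower values at 125. On the intensity scale the medians were -0.49 for GR and -0.35 for RELA at satellite sites, against -0.44 and -0.44 at called sites. At the 149 uncalled sites outside the satellite the median was 0.06 for GR (-0.16 to 0.25), with lower values at 71, and -0.42 for RELA (-0.50 to -0.31), with lower values at 114. Lower values on cotreatment were thus present without a call at satellite sites for both factors, and at the other uncalled sites for RELA but not in the median for GR, and their part in the differences at called sites was not tested.

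The difference was not alike at all called sites. GR at 927 sites with no RELA call had a median difference of -0.65, and at 359 sites with a RELA call in either measurement it was 0.10, against -0.61 and 0.18 over all sites. RELA at 468 sites with no GR call had a median of -0.55, and at 386 sites with a GR call it was -0.21. Over all sites these medians were -0.51 and -0.16. Sites called for one factor were joined by the other on cotreatment. Of 1076 distal sites called for GR after budesonide and not for RELA after IL-1β, 149 were called for RELA after IL-1β-plus-budesonide, or 13.8% (11.9 to 16.0), against 15.3% over all sites. Of 644 sites called for RELA and not for GR, 176 were joined by GR, or 27.3% (24.0 to 30.9), against 32% over all sites. Sites with both calls numbered 210 with the single treatments and 524 with both agents, and the 524 are 22.4% of distal sites against 26.8% of all sites.

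The 5 largest upward differences of GR were all at sites with a RELA call after IL-1β. Of the 283 distal sites that gained a GR call, 176 had a RELA call after IL-1β, against 1145 of 1742 over all sites. Near RFC3, a clamp loader subunit, GR was 0.00 after budesonide and 5.08 after IL-1β-plus-budesonide, and RELA was 6.04 and 6.14. Near BMP7, a ligand of the TGF-β family, GR was 2.53 and 6.14 and RELA was 7.27 and 7.04. The log2 fold differences of GR were 7.37 and 5.61 at these sites. Inside TACC2 GR was 0.00 and 4.13, but 86.7% of the 50-base words of that site occur elsewhere in the genome. Of the 5 largest upward differences of RELA, 4 were at sites with a GR call after budesonide. Such a GR call was also present at 149 of the 200 distal sites that gained a RELA call, against 814 of 1145 over all sites. Inside PALLD, which encodes an actin-bundling protein, RELA was 0.86 after IL-1β and 4.84 after IL-1β-plus-budesonide, and GR was 5.39 and 5.86. Near PREX1, an activator of Rac, RELA was 1.46 and 4.75 and GR was 5.76 and 6.13. At these sites GR was called with either treatment and RELA only on cotreatment, and the log2 fold differences of RELA were 6.60 and 6.09.

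The 5 largest downward differences of each factor were at sites with no call for the other. Sites without the other factor made up 927 of the 1286 called for GR after budesonide, against 4502 of 6479 over all sites. They made up 468 of the 854 called for RELA after IL-1β, against 2430 of 4738 over all sites. The GR call was lost inside SETBP1, where its intensity was 4.67 after budesonide and 1.04 after IL-1β-plus-budesonide, and near DIAPH2, a formin gene, where it was 5.40 and 1.16. RELA at SETBP1 was 0.00 and 2.21, and at DIAPH2 it was 0.00 in both, so neither had a RELA call. The RELA call was lost near GATB, a mitochondrial translation gene, with intensities of 4.73 after IL-1β and 0.81 after IL-1β-plus-budesonide, and near MARCKS, an actin-binding substrate of protein kinase C, with 5.11 and 2.98. GR was at most 3.26 at both of these.

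At 38 distal sites, or 1.62% against 2.09% of all sites, GR and RELA were both called only on cotreatment. Near JAG1, a Notch ligand, GR was 3.24 after budesonide and 5.97 after IL-1β-plus-budesonide, and RELA was 3.39 after IL-1β and 5.41 with both. Inside DIP2C GR was 2.14 and 6.08 and RELA was 0.99 and 5.76. Inside PRKCH, the gene of protein kinase C eta, both factors were called throughout and were higher on cotreatment, with GR at 6.85 and 8.71 and RELA at 5.22 and 7.10. The JAG1 and PRKCH sequences above each hold a GRE match of 10 positions and a full κB match.

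Motif matches separated the classes of distal sites. Matches were sought on both strands in the central 200 bp, and in 200 bp taken 2000 bp away as control. GRE matches were found at 13.2% of distal sites (11.9 to 14.6) and at 1.45% of the controls, against 12.4% of all sites. Full κB matches were found at 15.0% (13.6 to 16.5) and at 1.28% of the controls, against 18.7% of all sites and 37.1% of sites within 1 kb. Among the 927 sites called for GR with no RELA call, 25.9% held a GRE and 0.755% a κB match. In the same class over all sites the shares were 23.8% and 1.71%. Among the 468 sites called for RELA with no GR call, 0.427% held a GRE and 41.9% a κB match. Over all sites that class had 0.70% and 45.1%, so the split was not particular to distal sites. The 176 sites called for RELA and joined by GR held a κB match at 40.9% and a GRE at 1.70%. The 149 sites called for GR and joined by RELA held a GRE at 18.8% and a κB match at 2.68%. In both classes the motif of the factor called with the single treatment was thus common and that of the joining factor was rare. The 38 sites gained by both factors held a GRE at 21.1% (11.1 to 36.3) and a κB match at 44.7% (30.1 to 60.3). A match is a description of the letters and does not show that a factor was bound there.

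A perfect GRE was present at 13 distal sites, and all 13 were called for GR in both measurements and none for RELA. Over all sites 43 held a perfect GRE, of which 41 were called for GR after budesonide and 2 for RELA after IL-1β. The median GR intensity of the 13 distal sites was 5.04 after budesonide, below the 5.22 of all called distal sites. At 12 sites a GRE and a κB match stood together. GR was called at 6 of these after budesonide and at 12 after IL-1β-plus-budesonide, and RELA at 2 after IL-1β and at 7 after IL-1β-plus-budesonide. Among all sites of any sequence, 56% and 60.5% were called for GR and 40.9% and 42.1% for RELA. At sites called for GR after budesonide, the median difference of GR on cotreatment was -0.46 with a GRE match (279 sites) and -0.43 without (1007 sites). AP-1 matches were at 21.8% of distal sites with 7.91% in the controls, and C/EBP matches (TTGCNNAA) at 20.9% with 9.96%. FOX matches (TGTTTAC) were at 10.3% with 2.82%, against 8.81% of all sites. Matches to the TEAD word GGAATG were at 21.8%, but this word overlaps the satellite unit, and without satellite sites they were at 17.7%.

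Some distal sites lay in runs, in which neighbours were no more than 50 kb apart. Runs of 2 or more numbered 423 and held 1360 of the 2340 distal sites, and the other 980 were single sites. Of the runs, 29 held 7 or more sites, 8 of them made of satellite sites alone. Runs were not counted among the sites nearer to starts. The largest run without satellite sites lay downstream of SOX9 and reached into SLC39A11 on chromosome 17, at chr17:72421170-72716563. SOX9 is a transcription factor of cartilage and of lung epithelial progenitors, and SLC39A11 encodes a zinc transporter. The run held 20 sites from 300.3 to 595.3 kb downstream of the SOX9 start, 7 of them inside the SLC39A11 gene. GR was called at 9 of them after budesonide and at 16 after IL-1β-plus-budesonide, and its intensity was higher on cotreatment at 18. The lowest, median and highest GR intensities were 1.62, 4.02 and 6.11 after budesonide and 3.00, 5.29 and 6.87 after IL-1β-plus-budesonide. RELA was called at 15 after IL-1β and at 14 after IL-1β-plus-budesonide, with medians of 5.72 and 5.50, and it was higher on cotreatment at 8. At the strongest RELA site of the run, whose sequence is shown above, RELA was 8.11 and 6.95 and GR was 3.64 and 6.28. At another, 301.9 kb from the start, RELA was 7.15 and 7.61 and GR was 4.66 and 6.84. A κB match was present at 6 of the 20 sites and a GRE at 0. GR intensity was thus higher on cotreatment along nearly the whole run, where RELA calls were frequent with either treatment. Over all sites 56% and 60.5% were called for GR and 40.9% and 42.1% for RELA. The rise of GR was not particular to this run. Over the 854 distal sites called for RELA after IL-1β, the median GR intensity difference was 0.81, with lower values at 161.

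Other genes were named for many distal sites. Over all sites 56% and 60.5% were called for GR and 40.9% and 42.1% for RELA. MYC was named for 23, at 214.2 to 849.5 kb, of which GENCODE places 16 nearest to MYC. GR was called at 17 after budesonide and 18 after IL-1β-plus-budesonide, and RELA at 12 and 11, so the counts were nearly the same. GR was higher on cotreatment at 10 of the 23, and RELA at 10. RAD51B was named for 20 sites, with GR called at 11 and 14 and RELA at 9 and 12. In a run of 7 of them that were nearest to RAD51B in GENCODE, GR was called at 4 and 3 and RELA at 3 and 3. Another 12 distal sites were nearest to its neighbour ZFP36L1, which encodes a protein that binds and destabilises mRNAs. At those 12 sites GR was called at 6 and 10 and RELA at 6 and 9, and the intensity on cotreatment was higher at 11 for GR and at 10 for RELA. PDE4D, a cyclic AMP phosphodiesterase gene, was named for 15 sites, with GR called at 12 and 11 and RELA at 5 and 9. Further distal sites inside PDE4D had no gene named, and RELA calls did not rise there. A run of 8 had GR called at 8 and 7 and RELA at 0 and 0. Another run of 8 had GR called at 3 and 5 and RELA at 5 and 2. At 14 sites named PTPRM, a receptor phosphatase gene, GR was called at 10 and 11 but RELA at 1 and 3. A run of 7 sites in ROBO1, an axon guidance receptor gene, was the reverse, with RELA called at 6 and 6 and GR at 0 and 3.

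Some runs had a nearer gene than the one named. For reference, the shares called over all sites were 56% and 60.5% for GR and 40.9% and 42.1% for RELA. Both factors were called on cotreatment at 26.8% of all sites. At 10 sites named SPIDR, the nearest protein-coding start in GENCODE was that of CEBPD, which encodes the transcription factor C/EBPδ, at 2.90 to 225.5 kb. GR was called at 8 of them with either treatment, and RELA at 4 after IL-1β and 7 after IL-1β-plus-budesonide. At the site 2.90 kb from CEBPD, GR was 7.10 and 6.54 and RELA was 3.61 and 4.78. At 10 sites nearest to SEPTIN9, a cytoskeletal gene, GR was called at 7 and 9 and RELA at 4 and 9, and 8 had both calls on cotreatment. At 13 sites nearest to TCIM GR was called at 10 and 12 and RELA at 9 and 9. A run of 7 sites on chromosome 21 named CBSL lies in sequence that is repeated elsewhere in the reference for a median of 100% of its 50-base words, so its values are uncertain.

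Gene lists were counted by the deposited nearest gene, and their shares are read against the calls at all sites, which were 56% and 60.5% for GR and 40.9% and 42.1% for RELA. Among 37 glucocorticoid target genes, 7 were named for 26 distal sites. GR was called at 23 of these after budesonide and at 15 after IL-1β-plus-budesonide, and RELA at 3 after IL-1β and at 9 after IL-1β-plus-budesonide. These are 88.5% and 57.7% for GR and 11.5% and 34.6% for RELA, so the share with GR was above that of all sites after budesonide and near it on cotreatment, and the share with RELA was below it in both. At 6 sites named CITED2, a transcriptional cofactor gene, GR was called at 6 after budesonide with a median of 4.97, and at 2 on cotreatment with a median of 3.83. RELA there was called at 0 and 1. At 5 sites named FOXO1, a forkhead factor gene, GR was called at 5 and 4, and RELA at 0 and 3 with medians of 2.66 and 4.28. At 4 sites named SGK1, a glucocorticoid-induced kinase gene, GR was called at 3 and 3 and RELA at 1 and 3. KLF6, a zinc finger factor gene, was named for 6 sites, with GR called at 5 and 3 and RELA at 2 and 2. By the nearest gene of GENCODE the list had 35 sites, with GR called at 29 and 22 and RELA at 8 and 18, and 10 of these were the CEBPD sites. The share with RELA on cotreatment was then 51.4%, above that of all sites.

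Of 53 NF-κB target genes, 3 were named for 7 distal sites, with GR called at 4 and 5 (57.1% and 71.4%) and RELA at 3 and 3 (42.9% in each, near the shares of all sites). By the nearest gene of GENCODE only EDN1, the endothelin gene, kept any, and it had 2. One of these had GR intensities of 6.55 and 6.73 and RELA intensities of 7.03 and 6.44, and the other GR intensities of 0.46 and 2.08 and RELA intensities of 5.17 and 5.35. The 48 endoderm and lung epithelial factor genes had 80 distal sites under 17 names, with GR called at 40 and 41 (50% and 51.3%) and RELA at 43 and 34 (53.8% and 42.5%), where the last share is that of all sites to within 1 percentage point. By the nearest gene of GENCODE this list had 88 sites, with GR called at 58.0% and 52.3%. RELA was then called at 45.5% and 39.8%, so its share after IL-1β was nearer to that of all sites. At 6 sites named ID2, an inhibitor of helix-loop-helix factors, GR was called at 0 and 2 and RELA at 5 and 4, and GR was higher on cotreatment at 6. At 6 sites named NR2F1, an orphan nuclear receptor gene, GR was called at 5 and 1. The 46 growth factor and TGF-β family genes had 68 sites, with GR called at 45 and 48 (66.2% and 70.6%) and RELA at 34 and 29 (50% and 42.6%), so RELA on cotreatment was near the share of all sites, and MYC supplied 23 of the sites. By the nearest gene of GENCODE that list had 53 sites, with GR called at 69.8% and 66.0% and RELA at 47.2% and 41.5%. The 20 AP-1 and C/EBP factor genes had 7 sites, with GR called at 4 and 5 (57.1% and 71.4%) and RELA at 4 and 4 (57.1% in each). By GENCODE they had 14 sites, of which 10 were the CEBPD sites. GR was then called at 11 and 11 (78.6% in each) and RELA at 6 and 9 (42.9% and 64.3%).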

How the data were processed

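GR and RELA were immunoprecipitated from A549 cells in 2 independent experiments. Per the labels and the study's methods, the authors aligned reads to GRCh38, and the submitters' processing notes list bcl2fastq, FastQC 0.10.1, Bowtie2 2.4.4, SAMtools, MACS2 2.2.7.1 and DiffBind 3.2. The sources used here do not state how the site list was merged, scaled and filtered, or whether input and repeats were corrected for. The deposited table has 46284 rows, 4 for each of 11571 sites of 400 bp. In the authors' deposited table the fold over NS is taken to be log2, the FDR is a p-value adjusted over all sites, and the binding intensity is a score on a log scale of unstated base. At distal sites called in the single treatment, its median differences on cotreatment were close to those of the folds. They were -0.44 on both scales for GR, and -0.44 against -0.42 for RELA. For GR at distal sites called for RELA after IL-1β and not for GR after budesonide, they were 1.04 against 1.37. At satellite sites they also differed. The labels of behavior, trend and significance were not used as results, and the call follows the limits that they follow. The table holds no value per library, so depth, replicate spread and scaling are unknown, and no test over libraries was run.

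Distances, genes and sequences were computed from GENCODE 44 and the GRCh38 sequence. A word search counted 50-base words, taken every 25 bases, that occur more than once in the genome. Motif matches were counted in the central 200 bp on both strands, and the search was tested on simulated data. Percentages have 95% Wilson intervals and medians have order-statistic intervals, which cover counting error only. Sites were named by rank of intensity, of change and of distance, by membership in 5 gene lists and by nearness to a GENCODE start. The members and lists were chosen with earlier results of these data known, and the satellite limit of 10 copies was set after the values were seen, as was the choice of the sites whose sequences are printed and of the runs and genes described. Alternatives were other distance limits, GENCODE distances, other call limits and other motif limits, with the removal of satellite sites and centring on them added after the data were seen. Tables were handled with pandas 2.3.3 and NumPy 2.4.6 under Python 3.11.15, intervals with SciPy 1.17.1, sequences with pysam 0.24.0 and numba 0.67.0, and plots with Matplotlib 3.10.9.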

Additional observations from a re-analysis of the deposited data

How the results depend on the processing

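The 13 results were recomputed under alternative settings, which gave 89 values. Of these values 72 were planned, and the others were chosen after seeing the data. In all, 42 values stayed within the interval of the reported value or, for the number of sites, close to it. No paired analysis was possible because the table holds no value per library, and no library could be left out for the same reason. With a limit of 100 kb there were 4304 sites, with GR called after IL-1β-plus-budesonide at 57.9% and 67.4% inside a gene. With a limit of 500 kb there were 674 sites, GR was called at 46.7% and 45.5% and RELA after IL-1β-plus-budesonide at 32.9%, the median GR difference was -0.49, 23.1% of RELA sites were joined by GR, and 53.7% lay inside a gene. With distances to GENCODE protein-coding starts, GR after budesonide was called at 52.6% and 57.7% lay inside a gene. An FDR limit of 0.01 gave 51.8% and 48.7% for GR, 29.4% and 27.3% for RELA, and 9.13% and 22.1% for GR and RELA sites joined by the other factor. No intensity minimum gave 61.8%, 66.5%, 41.1% and 44.4%, joined shares of 17.2% and 32.7%, and median differences of -0.34 for GR and -0.36 for RELA. A minimum of 5 gave 33.4%, 28.8%, 21.8% and 18.3%, with joined shares of 7.73% and 19.1%. Without satellite sites the calls were 58.5%, 58.1%, 38.8% and 38.4%, and 67.8% lay inside a gene. In the whole 400 bp, GRE matches were at 14.9%, κB at 16.6% and AP-1 at 32.4%. GRE matches were at 3.38% when 11 positions were required and at 35.4% for 9, and κB matches at 41.6% for 8 of 9 positions.

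The median differences on cotreatment depended on the reference. Relative to the median of the satellite sites, the GR difference was 0.52 and the RELA difference 0.21 on the fold scale, both reversed in sign, and on the intensity scale they were 0.049 and -0.093. The cause was not tested, and which reference is right cannot be settled without values per library.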
